A study of Mus musculus with 19 samples.

Results

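The genes described here encode the constitutive proteasome. They were the protein-coding genes whose GENCODE M21 symbol is Psma, Psmb, Psmc or Psmd and a number, without the inducible catalytic subunits Psmb8, Psmb9 and Psmb10. Each also had to reach a value of 10 in 3 or more libraries. All 36 genes that matched by symbol met this minimum, of 23973 genes that met it and 49671 in the files. They fall into 8 alpha ring genes, 4 structural and 4 catalytic beta ring genes, 6 ATPases, 3 genes of the base, 8 of the lid and 3 assembly chaperones.

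The proteasome degrades proteins tagged with ubiquitin. Its core particle is a barrel of stacked rings: the alpha rings form the gate, and the beta rings hold the active sites inside. A regulatory particle caps the barrel: receptors in it bind ubiquitin, the lid removes the ubiquitin chain, and a ring of ATPases unfolds the substrate and threads it into the core. Alpha-synuclein, the protein that aggregates in Parkinson's disease, is among the proteins this machine can degrade.

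RNA was sequenced from brain homogenate that had been enriched for microglia, the resident macrophages of the brain, with 1 library for each of 19 mice. HEM mice overexpress full-length human wild-type alpha-synuclein from a transgene on the X chromosome, driven by the murine Thy-1 promoter, which is active mainly in neurons. WT mice were the controls, and the background strain was B6D2F1/J for both. There were 8 HEM and 4 WT mice aged 13 months, and 4 HEM and 3 WT mice aged 3 months. Libraries held 63.3 to 95.8 M gene-assigned reads for HEM and 93.2 to 124.5 M for WT at 13 months, and 74.7 to 112.9 M for HEM and 83.0 to 106.8 M for WT at 3 months. Values are read counts divided by the size factor of the library, called normalized counts below. At 13 months WT was sequenced deeper than HEM (mean 110.7 against 75.3 M). Any part of this depth difference left in the normalized counts was not tested. All 10 microglia markers had reads in each library, and none was called in any comparison. At 13 months 9 of the 10 had an estimate below 0 in HEM against WT, with a median log2 change of -0.20. The part of this in the subunit values was not tested. The library is a mixture of cells, in which fewer cells of a type and less RNA per cell cannot be told apart.

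At 13 months the transcripts that mark several other cell types differed between the genotypes. The summed level of 8 choroid plexus markers was 1986190 to 3775610 normalized counts in HEM, against 4823980 to 5764930 in WT, and 8 of 8 were called lower in HEM. The summed level of 12 neutrophil markers was 68800 to 607387 in HEM and 41842 to 113655 in WT, and 12 of 12 were called higher. Of 10 markers of dividing cells, 9 were called higher (7247 to 39255 in HEM and 3368 to 6614 in WT), as were 2 of 7 erythroid markers (441532 to 1498450 in HEM and 287213 to 703198 in WT). Of 6 astrocyte markers 1 was called lower, while their median log2 change was 0.04. Their summed level was 167760 to 340309 in HEM and 170981 to 241311 in WT. No marker of these lists was at 0 in any library. The choroid plexus and dividing cell ranges did not overlap, whereas the neutrophil, erythroid and astrocyte ranges did. These values stand beside each 13-month result below. Fits with neutrophil and erythroid markers, or choroid plexus markers, as a covariate are given below. Since these markers differed with genotype, such fits cannot tell the part of the markers from that of genotype. It was not tested in any other way.

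The subunit genes were strongly expressed. Divided by the length of the principal transcript, the mean over the 4 groups was highest for the structural beta subunit Psmb4, at 10985 normalized counts per kilobase. The caspase-like catalytic subunit Psmb6 followed at 10769, then the alpha subunit Psma7 at 8705, the structural beta subunit Psmb3 at 8244 and the ATPase Psmc3 at 8224. The median per kilobase was 7042 for structural beta genes, 5504 for the scaffold and receptor genes of the base, 5381 for ATPases, 4106 for alpha genes and 3596 for lid genes. The assembly chaperones, which guide the base together and then leave it, were below the subunits of the particle itself, with a median of 980 per kilobase. The exceptions were 2 tissue-restricted genes: the testis alpha subunit Psma8 had 114 per kilobase, and the thymus catalytic subunit Psmb11 had 1.29 and was between 0 and 27.6 normalized counts in all libraries.

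**Figure D1:**
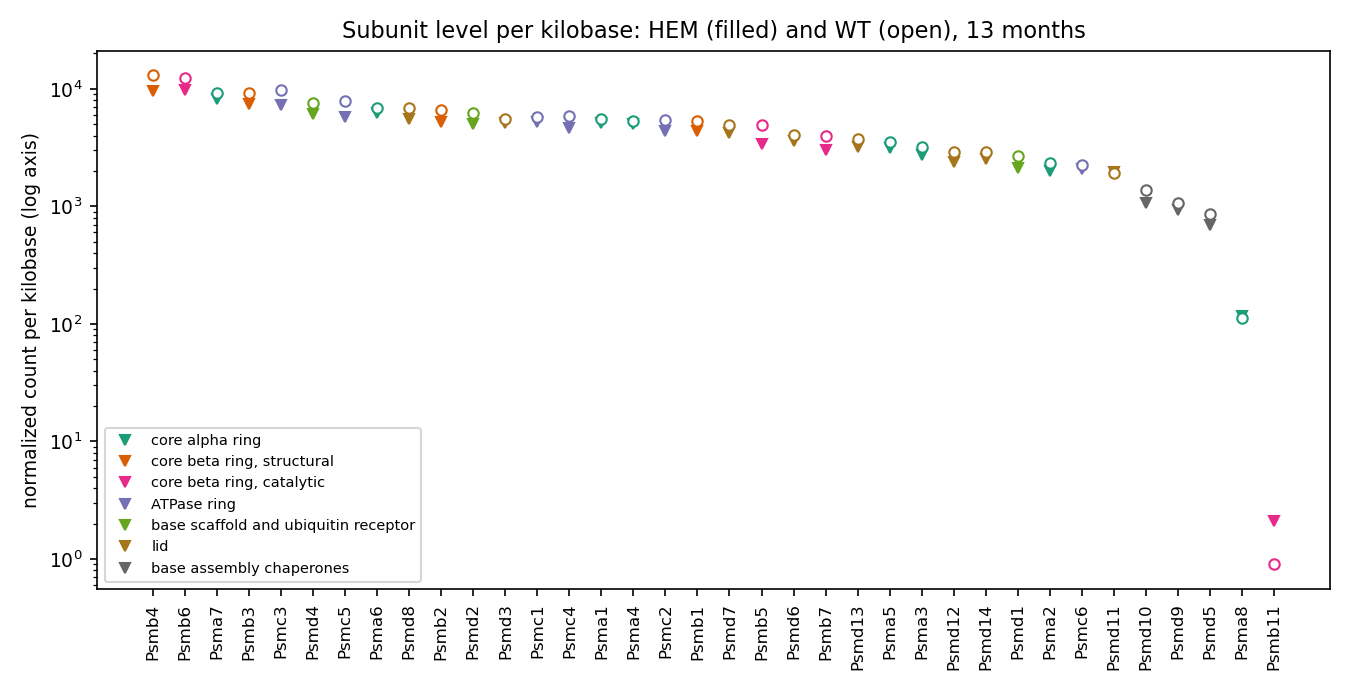
Mean normalized count per kilobase of principal transcript (log axis) of each of the 36 genes at 13 months, in HEM (filled triangles) and WT (open circles), ordered by the mean over the 4 groups and coloured by position in the particle. From Psmb4 at the left the level declines to the assembly chaperones, and Psma8 and Psmb11 lie apart at the right.

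Replicate libraries differed little for these genes. The median within-group SD was 0.11 on the log2 scale over the 36 genes, against 0.40 over all 23973 tested genes. Over the 8007 tested genes in the level range of the 34 broadly expressed members it was 0.18. The least variable was the lid subunit Psmd3, with an SD of 0.07, and the most variable of the broadly expressed members was the catalytic subunit Psmb5, with 0.26. For Psmb11, near the lower limit of detection, the SD was 1.56.

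The first comparison asked how proteasome transcripts in older mice differed with the transgene. HEM mice had less transcript of most subunits than WT mice at 13 months: 21 of 36 genes were called lower and 0 higher. A call is an adjusted p under 0.05 in limma-trend on log2(value + 1), with Benjamini-Hochberg adjustment over all 23973 genes, of which 7.3% were called lower and 4.87% higher. The estimate was below 0 for 33 of the 36 genes, as it was for 46.2% of all genes, and the median log2 change was -0.26, against 0.03 over all genes. Among called genes the level fell by 14.3% for Psmd7, the smallest change, and fell by 28.9% for Psmb5, the largest. All 8 HEM libraries lay below all 4 WT libraries for 14 of the 36 genes, and for 3.98% of all genes. Below, a log2 change is HEM over WT, with its standard error.

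**Figure D2:**
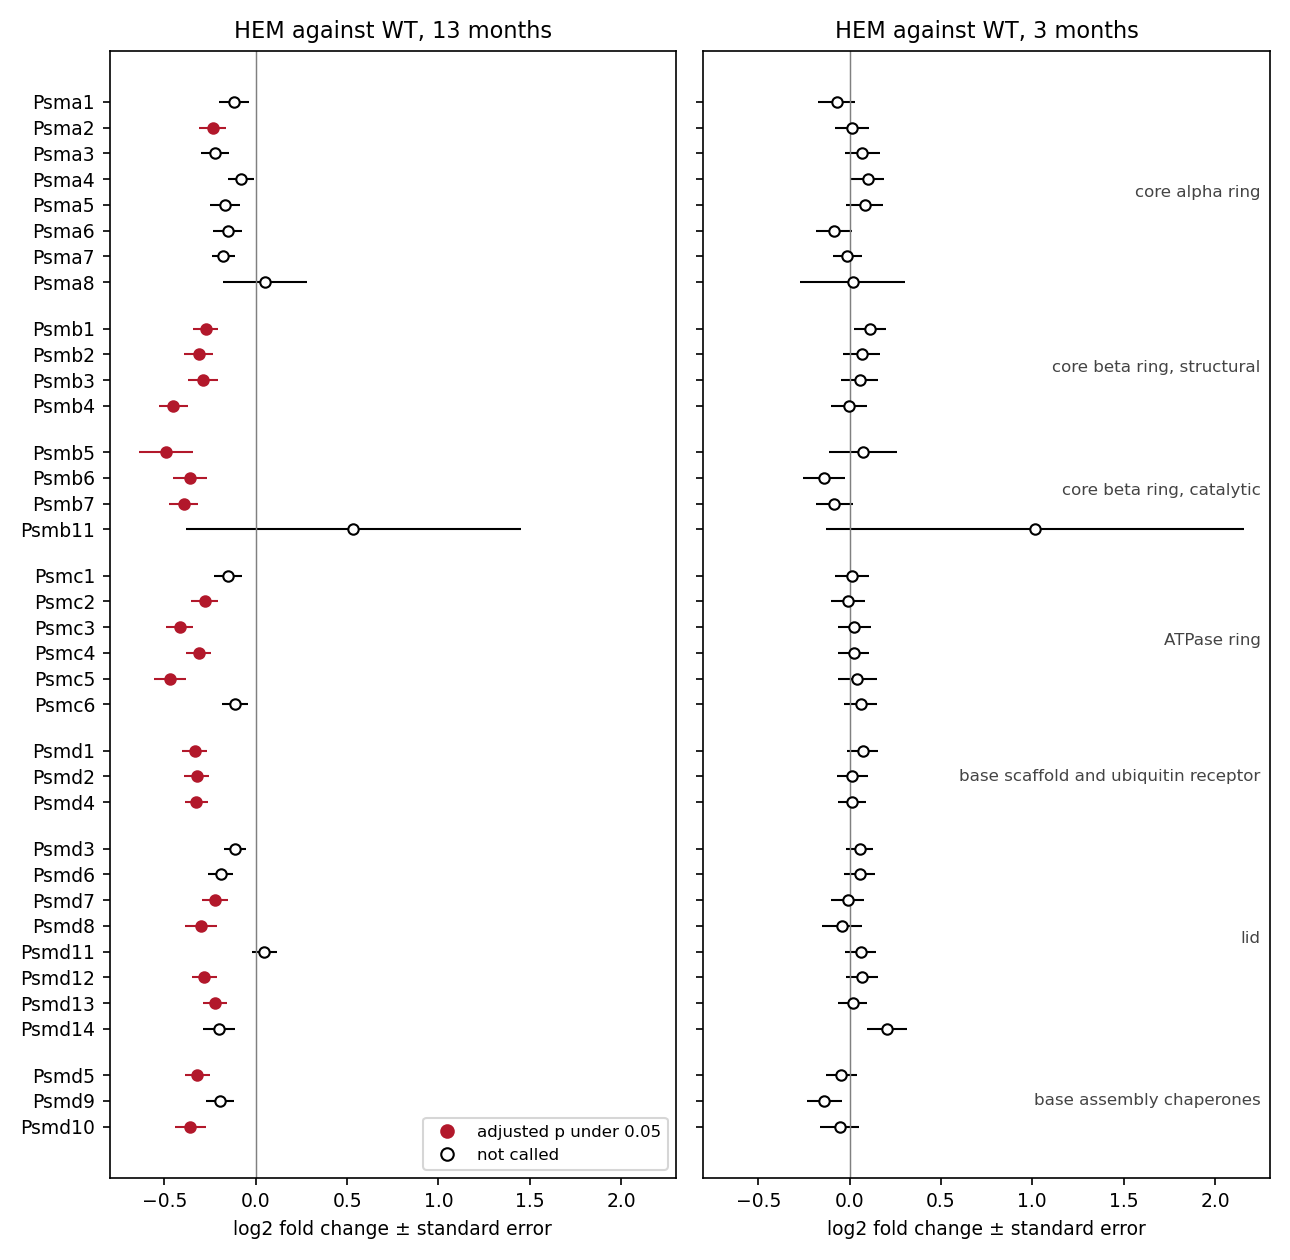
Log2 fold change with standard error of each of the 36 genes, HEM over WT, at 13 months (left) and 3 months (right), grouped by position in the particle. Red points mark the 21 genes called lower at 13 months, and open points the genes not called, which at 3 months are all 36.

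The catalytic subunits cut the substrate, each with its own preference. Psmb7, the trypsin-like subunit (mm10 chromosome 2, 38588036 to 38644087), had from 2983 to 3857 normalized counts in HEM, with a median of 3593, against 4156, 5224, 4473 and 4491 in WT. Every HEM library was below the lowest WT library, and the log2 change was -0.39 ± 0.08 (adjusted p = 0.00427, limma). Psmb6, the caspase-like subunit (chromosome 11, 70525367 to 70527858), had 6257 to 8752 with a median of 7858 in HEM, against 8181, 11344, 9383 and 10941 in WT. The groups overlapped through the lowest WT library and the highest HEM library, and the change was -0.36 ± 0.09 (adjusted p = 0.0149, limma). Psmb5, the chymotrypsin-like subunit (chromosome 14, 54614119 to 54618022), had 2618 to 3550 with a median of 3012 in HEM, against 2973, 5853, 4970 and 3841 in WT. WT replicate 6, at 2973, lay within the HEM range, while WT replicate 7, at 5853, was the highest of all. Its change was the largest estimate of the 36 genes below 0 and the least precise of those called, -0.49 ± 0.15 (adjusted p = 0.0352, limma), and 12 of the 19 fits without 1 library called it. Psmb5, Psmb6 and Psmb7 have 1, 2 and 1 annotated pseudogenes of the same name, and exons of Psmb5 and Psmb7 overlap those of Mir686 and Nek6 over 12.1% and 11.8% of their bases, which makes the counts of these 3 genes less certain. The thymus subunit Psmb11, whose gene starts 3410 bases from that of Psmb5, had 0 to 27.6 with a median of 6.84 in HEM and a median of 2.52 in WT, with no call.

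The structural beta subunits hold the active sites in place, and 4 of 4 were called lower, with a median of -0.30. Psmb4 (chromosome 3, 94884093 to 94886961) had 10398 to 11999 with a median of 11393 normalized counts in HEM, against 13578, 17825, 14859 and 15567 in WT. The groups were well apart, and the change was -0.45 ± 0.08 (adjusted p = 0.00237, limma). Psmb2 changed by -0.31 ± 0.08, Psmb3 by -0.29 ± 0.08 and Psmb1 by -0.28 ± 0.07. In all, 7 of 8 beta ring genes were called lower, all but the thymus subunit.

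The promoters of Psmb5, Psmb6, Psmd12 and Psmb4 are shown because all 4 genes were called lower at 13 months, while the first 3 hold, and Psmb4 does not hold, a match to the core of the antioxidant response element. That element is bound by the factor encoded by Nfe2l1, the main activator of proteasome genes when the particle is inhibited, together with a small Maf protein. The windows searched are the 250 bases before the gene start of RefSeq on GRCm38.p6. The gene starts earlier in GENCODE M21 by 27 bases of the window in Psmb5, 44 in Psmd12 and 3 in Psmb4, and those bases are not printed. Shown are chr14:54618023-54618245 on the minus strand for Psmb5, chr11:70525107-70525356 on the plus strand for Psmb6, chr11:107479278-107479483 on the plus strand for Psmd12 and chr3:94886962-94887208 on the minus strand for Psmb4. They read 5′ to 3′ toward the gene, and capitals mark the match to TGACNNNGC, which in Psmd12 is on the opposite strand.
Psmb5: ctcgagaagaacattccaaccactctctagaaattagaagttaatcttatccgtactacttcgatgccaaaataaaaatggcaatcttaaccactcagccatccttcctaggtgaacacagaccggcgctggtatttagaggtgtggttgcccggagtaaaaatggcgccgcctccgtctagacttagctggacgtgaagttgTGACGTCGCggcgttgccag
Psmb6: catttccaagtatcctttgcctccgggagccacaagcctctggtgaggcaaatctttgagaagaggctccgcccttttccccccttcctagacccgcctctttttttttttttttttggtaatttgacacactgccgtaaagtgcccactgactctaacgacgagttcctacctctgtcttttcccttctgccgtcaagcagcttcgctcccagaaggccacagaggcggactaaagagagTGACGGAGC
Psmd12: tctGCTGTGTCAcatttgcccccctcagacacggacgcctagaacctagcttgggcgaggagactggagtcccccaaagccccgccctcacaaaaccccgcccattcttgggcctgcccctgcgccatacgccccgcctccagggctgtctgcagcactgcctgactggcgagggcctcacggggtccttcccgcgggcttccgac
Psmb4: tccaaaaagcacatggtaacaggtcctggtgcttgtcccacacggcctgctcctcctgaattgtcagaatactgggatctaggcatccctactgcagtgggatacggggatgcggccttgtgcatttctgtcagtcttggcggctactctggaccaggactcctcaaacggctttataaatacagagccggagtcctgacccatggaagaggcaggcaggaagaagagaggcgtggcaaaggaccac
The match begins 47 bases before the RefSeq start in Psmb5, 9 in Psmb6 and 247 in Psmd12. RefSeq windows were found for 29 of the 36 genes, 31 windows in all. TGACNNNGC, searched on both strands, was in 5 of the 29 genes (Psmb5, Psmb6, Psmc6, Psmd9 and Psmd12), or 16.1% of their windows, against 10.2% of 32851 RefSeq windows of the same length. Of these 5 genes, Psmc6 and Psmd9 were not called at 13 months. The CCAAT box was in 38.7% of the subunit windows and 33.8% of all windows, and the Sp1 box GGGCGG in 54.8% and 32.7%. Median GC content was 54.8% in the subunit windows and 52.4% in all. A match in these windows is a description of the letters and says nothing of binding in these mice.

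The alpha ring, which gates the barrel, had the smallest differences, with a median of -0.16 and 1 of 8 genes called lower. That gene was Psma2, with 5261 to 6234 and a median of 5898 normalized counts in HEM, against 6248, 7765, 6778 and 6648 in WT. The highest HEM library was just below the lowest WT library, and the change of -0.24 ± 0.07 (adjusted p = 0.0448, limma) was called in 7 of the 19 fits without 1 library. The change was -0.23 ± 0.08 for Psma3, -0.18 ± 0.06 for Psma7 and -0.08 ± 0.07 for Psma4, none of them called. Psma8 had 105 to 270 in HEM and 129 to 221 in WT. The difference between the alpha and beta rings in the number of calls was not tested.

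The ATPase ring unfolds substrates, and 4 of 6 genes were called lower, with a median of -0.30. Psmc3, an ATPase whose tail docks into the alpha ring and helps to open the gate (chromosome 2, 91054009 to 91066369), had the smallest p of all members. It had 11239 to 13260 with a median of 11687 normalized counts in HEM, against 13613, 17803, 15217 and 17008 in WT. No HEM library reached the lowest WT library, and the change was -0.42 ± 0.07 (adjusted p = 0.0023, limma). Exons of Slc39a13 overlap 8.25% of its exon bases. Psmc5 (chromosome 11, 106256154 to 106263120) had 6780 to 8476 with a median of 7315 in HEM, against 8793, 12202, 10266 and 10575 in WT. These groups did not overlap either, and the change was -0.47 ± 0.09 (adjusted p = 0.0028, limma). Psmc4 changed by -0.31 ± 0.07 and Psmc2 by -0.28 ± 0.07. The other ATPases were not called, Psmc1 at -0.15 ± 0.08 and Psmc6 at -0.11 ± 0.07.

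The base also holds 2 large scaffolds, on which shuttle factors and other subunits dock, and a ubiquitin receptor, and 3 of 3 were called lower. The receptor Psmd4 (chromosome 3, 95032694 to 95042614) had 7491 to 9090 with a median of 8032 normalized counts in HEM, against 9280, 10700, 9989 and 10741 in WT. The highest HEM library, replicate 1, came close to the lowest WT library but did not reach it. The change was -0.33 ± 0.06 (adjusted p = 0.00313, limma). The scaffolds Psmd1 and Psmd2 changed by -0.33 ± 0.07 and -0.32 ± 0.07, and exons of Gm21972 and Htr2b overlap 7.61% of the exon bases of Psmd1.

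In the lid, which carries the deubiquitinating enzyme Psmd14, 4 of 8 genes were called lower, with a median of -0.21. They were Psmd8 (-0.30 ± 0.09), Psmd12 (-0.28 ± 0.07), Psmd13 (-0.22 ± 0.07) and Psmd7 (-0.22 ± 0.07), all structural subunits, and exons of Sirt3 overlap 10.1% of the exon bases of Psmd13. Psmd7 was at the edge of the threshold, with an adjusted p of 0.0493 (limma), and was called in 4 of the 19 fits without 1 library. Psma3 (adjusted p = 0.0615) and Psmd6 (adjusted p = 0.0737, limma) were just outside it. Psmd14 itself had a change of -0.20 ± 0.09 and was not called. Psmd11, a subunit that braces the lid against the base and the core, was the broadly expressed member with an estimate above 0, 0.05 ± 0.07. It had 5122 to 6413 with a median of 5613 in HEM, against 5555, 5468, 5593 and 5173 in WT, so the WT libraries lay inside the HEM range.

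Of the 3 chaperones that assemble the base, Psmd10 (-0.36 ± 0.08) and Psmd5 (-0.32 ± 0.07) were called lower, and Psmd9 (-0.19 ± 0.08) was not. Psmd10, also known as gankyrin, is the X-linked member. It had 1370 to 1704 with a median of 1524 normalized counts in HEM, against 1995, 2165, 1768 and 1887 in WT, with no overlap. Over 25.5% of the exon bases of Psmd9 another gene, Gm26745, overlaps it, which makes its count uncertain.

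**Figure D3:**
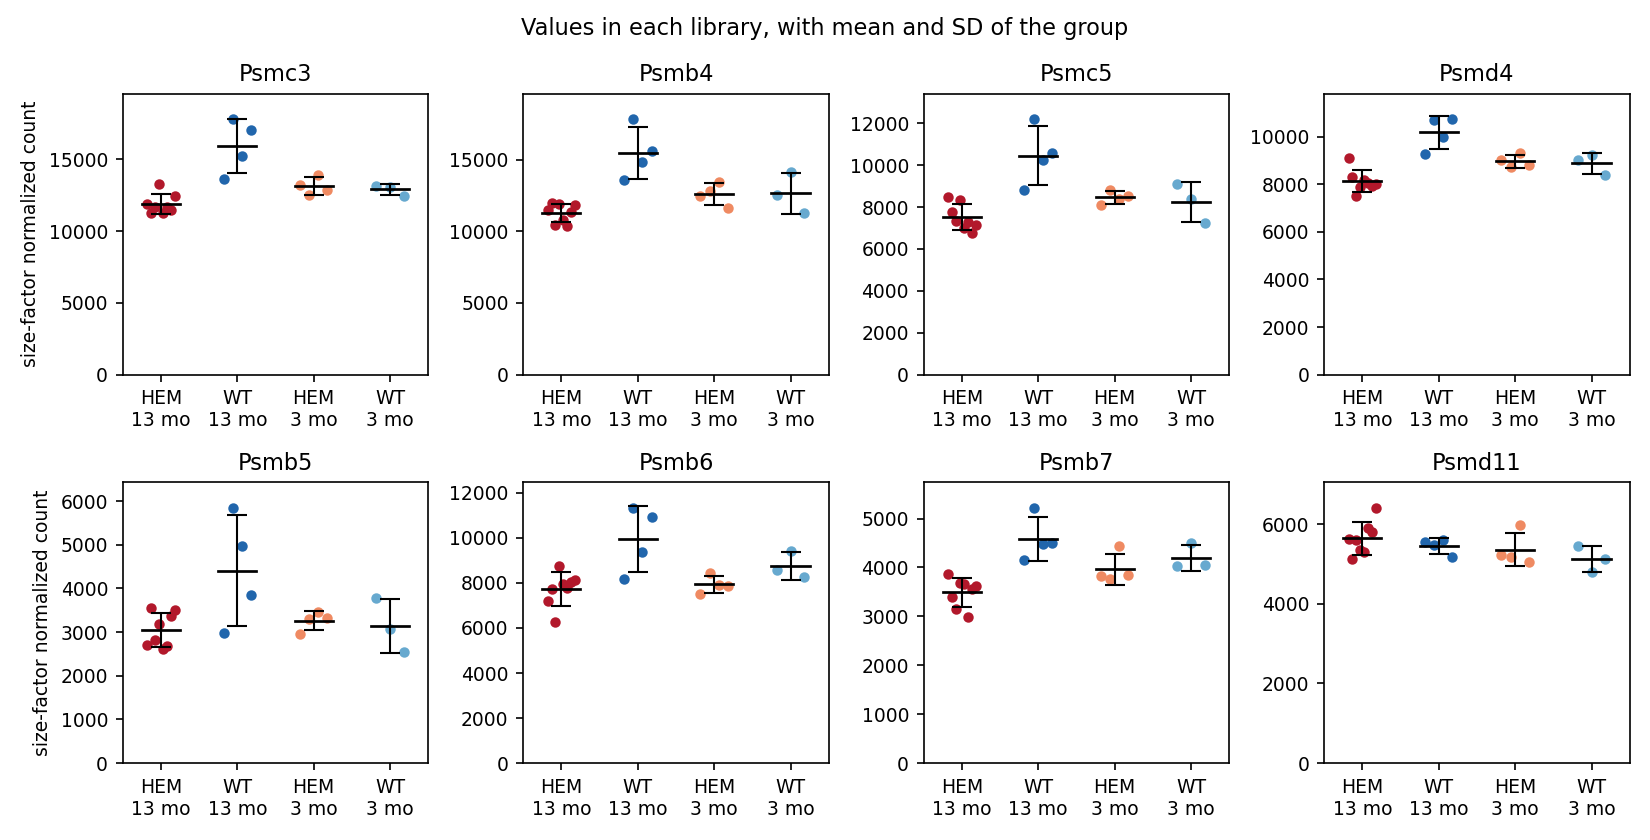
Normalized count of 8 genes in each of the 19 libraries, with the mean and SD of each group as bars, for HEM and WT at 13 months and then HEM and WT at 3 months. In Psmc3, Psmb4, Psmc5, Psmd4 and Psmb7 the 8 HEM libraries at 13 months lie below the 4 WT libraries, in Psmb5 and Psmb6 they overlap, and in Psmd11 the WT libraries lie inside the HEM range.

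Several settings ended these calls or moved their number. With the mean level of neutrophil and erythroid markers as a covariate 0 of 36 members were called, as were 0 of all genes, while the median of the members was -0.26 and 16 had an unadjusted p under 0.05, against 9.59% of all genes. With that of choroid plexus markers 0 were called, among members and among all genes, with a median of -0.20 and 13 at an unadjusted p under 0.05, against 7.12% of all genes. Without WT replicate 7, which has the highest proteasome level of all libraries, 10 members were called lower, as were 4.02% of all genes.

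The second comparison asked whether the genotypes already differed at 3 months. No subunit was called, and 0% of all genes were called, by limma. At an unadjusted p under 0.05 there were 0 members, against 3.85% of all genes. Calls by edgeR were 0 among members and 0 among all 23973 genes. DESeq2 also called 0 members, against 5 genes higher and 1 lower of 23951. The median change was 0.02, with 24 genes above 0 (51.5% of all genes) and 12 below. The smallest p belonged to Psmd14, with 4381, 4530, 4187 and 3851 normalized counts in HEM, against 3733, 3984 and 3334 in WT. The groups overlapped through 1 library of each, and the change was 0.20 ± 0.11 (adjusted p = 1.0, limma). Psmd9 was next, with 2425, 2446, 2354 and 2310 in HEM, against 2660, 2854 and 2375 in WT, a change of -0.14 ± 0.10 (adjusted p = 1.0, limma). The catalytic subunits changed by 0.07 ± 0.18 (Psmb5), -0.14 ± 0.11 (Psmb6) and -0.08 ± 0.10 (Psmb7). The standard errors at this age were larger than at 13 months, since the groups were smaller. Marker levels leaned at this age too, though no marker was called. Estimates were above 0 for 10 of 10 neuronal markers (median 1.08) and 8 of 8 choroid plexus markers (median 0.15). The same held for 6 of 6 endothelial markers (median 0.12), 8 of 10 markers of dividing cells (median 0.11) and 5 of 6 oligodendrocyte markers (median 0.05). Estimates below 0 were those of 12 of 12 neutrophil markers (median -0.63) and 7 of 7 erythroid markers (median -0.38). So were those of 5 of 6 astrocyte markers (median -0.33) and 8 of 10 microglia markers (median -0.09). The part of the markers in the 3-month subunit values was not tested.

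The next comparisons set 13 against 3 months within each genotype. In HEM mice no subunit was called, against 1.62% of all genes. At an unadjusted p under 0.05 there were 7 members lower (7.68% of all genes) and 0 higher. By edgeR 0 members were called, against 201 genes higher and 171 lower of 23973. DESeq2 called Psmc4 lower, as it did 2.38% of the genes it tested. The median change with age was -0.10. Psmc4, an ATPase, had 6425 to 7048 with a median of 6776 normalized counts at 13 months, against 7911, 8056, 7553 and 7715 at 3 months. The ages did not overlap, and the change was -0.21 ± 0.07 (adjusted p = 0.123, limma). The lid subunit Psmd12 had 4190 to 4861 with a median of 4542 at 13 months, against 5487, 4887, 5550 and 4894 at 3 months, again without overlap, a change of -0.19 ± 0.07 (adjusted p = 0.172, limma). Together with Psmd3 these were the 3 genes without overlap, all lower at 13 months, as were 1.36% of all genes. The catalytic subunits changed by -0.10 ± 0.15 (Psmb5), -0.04 ± 0.09 (Psmb6) and -0.19 ± 0.08 (Psmb7).

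In WT mice no subunit was called with age either, against 0.709% of all genes. Estimates leaned the other way: 35 of 36 were above 0 (48.8% of all genes), the median was 0.19, and 15 had an unadjusted p under 0.05, all higher at 13 months, against 9.18% of all genes. Psmc3 had 13613, 17803, 15217 and 17008 normalized counts at 13 months, against 13152, 13098 and 12447 at 3 months. The ages did not overlap, and the change was 0.30 ± 0.09 (adjusted p = 0.106, limma). Psmb1 had 8711, 10503, 9144 and 9131 at 13 months, against 7874, 7989 and 7196 at 3 months, also without overlap, a change of 0.28 ± 0.09 (adjusted p = 0.108, limma). There were 5 genes without overlap, Psmc3, Psmb1, Psmd1, Psmd4 and Psmd5, all higher at 13 months, as were 8.83% of all genes. The catalytic subunits changed by 0.46 ± 0.18 (Psmb5), 0.18 ± 0.11 (Psmb6) and 0.13 ± 0.10 (Psmb7). By edgeR 0 members were called, against 64 genes higher and 39 lower of 23973. DESeq2 called Psmc3, Psmb1 and Psmc5 higher, as it did 4.44% of the genes it tested, and without WT replicate 6 at 13 months limma called Psmc3 and Psmc5 higher, as it did 1.67% of all genes. The marker lists were read in the same comparisons. Choroid plexus markers had a median change of -0.49 in HEM (1 of 8 called lower) and 0.65 in WT (none called), and neutrophil markers 1.64 in HEM and -1.11 in WT (none of 12 called in either). Erythroid markers had a median of 0.08 in HEM (1 of 7 called higher) and -1.17 in WT (none called), and endothelial markers -1.05 in HEM (1 of 6 called lower) and -1.16 in WT (none called). Markers of dividing cells had 0.93 in HEM and -0.78 in WT (none of 10 called in either), and astrocyte markers 0.48 in HEM (2 of 6 called higher) and 0.44 in WT (1 called higher). Neuronal markers had a median of -0.91 in HEM, with 9 of 10 below 0, while 5 of 10 were below 0 in WT, and none was called in either. Microglia markers had a median of -0.18 in HEM, with 10 of 10 below 0, and -0.12 in WT, with 9 of 10 below 0. Oligodendrocyte markers had a median of -0.04 in HEM and -0.19 in WT. None of these was called in either genotype. The part of all these marker lists in the subunit values was not tested.

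The level of the whole set was summarised for each library. It is the median over the 36 genes of the log2 value minus the gene's mean over the 4 groups. It was -0.177 to -0.0384 in HEM at 13 months and 0.0346, 0.293, 0.14 and 0.153 in WT at 13 months. At 3 months it was 0.0109, -0.0247, 0.0572 and -0.0952 in HEM, and -0.0093, 0.0411 and -0.101 in WT. The means were -0.10 ± 0.04 in HEM and 0.16 ± 0.11 in WT at 13 months, while at 3 months they were -0.01 ± 0.06 in HEM and -0.02 ± 0.07 in WT (± SD). The genotypes were apart at 13 months and mixed at 3 months, and the 3-month means lay between those of the 13-month groups. Single 3-month libraries overlapped the range of each 13-month group.

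**Figure D4:**
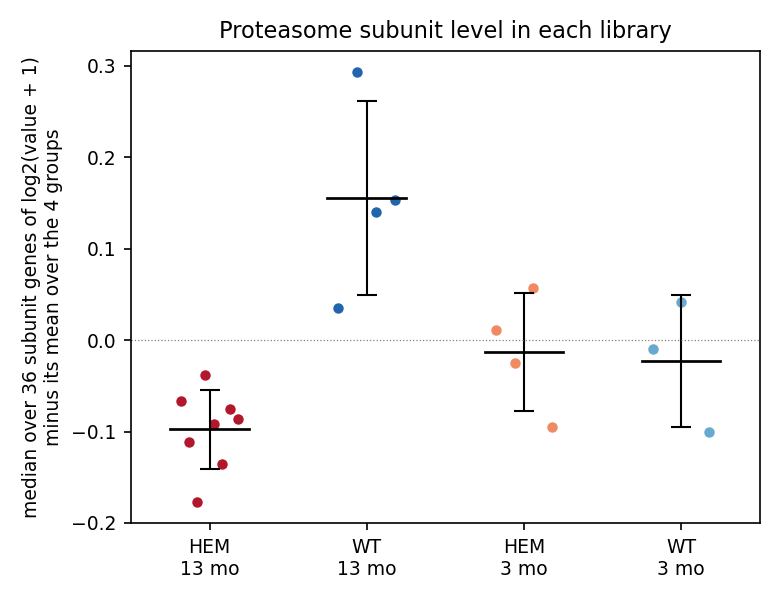
Level of the proteasome genes in each of the 19 libraries, as the median over the 36 genes of the log2 value minus the gene's mean over the 4 groups, with the mean and SD of each group. The 8 HEM libraries at 13 months lie from -0.177 to -0.0384, below the 4 WT libraries of that age, and the 3-month groups overlap.

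Whether the genotype effect differed between the ages was tested as the difference of the 2 effects, 13 months minus 3 months. No member was called, and 0% of all genes were, by limma. The estimate was below 0 for 35 of 36 genes (49.6% of all genes) with a median of -0.27, and 20 had an unadjusted p under 0.05, all negative, against 8.04% of all genes. The smallest p belonged to Psmc3, at -0.44 ± 0.11 (adjusted p = 0.103, limma), and to the scaffold Psmd1, at -0.41 ± 0.11 (adjusted p = 0.108, limma). Psmd1 had 6003 to 7179 with a median of 6660 in HEM at 13 months, against 7674, 8812, 8085 and 8784 in WT. At 3 months it had 7295, 6851, 7934 and 7510 in HEM, against 7589, 6559 and 6975 in WT. Its groups were apart at 13 months and overlapped at 3 months, yet the difference between the ages did not pass the threshold. For the catalytic subunits it was -0.57 ± 0.24 (Psmb5), -0.22 ± 0.15 (Psmb6) and -0.31 ± 0.13 (Psmb7). By edgeR 0 members and 0 of all 23973 genes were called. DESeq2 called 9 members, all negative, as were 3.23% of the genes it tested. Without WT replicate 6 at 13 months limma called 3, all negative, as were 0.959% of all genes. Some marker lists had genes at an unadjusted p under 0.05 for this difference. They were 12 of 12 neutrophil markers (median 2.73) and 8 of 8 choroid plexus markers (median -1.12). So were 9 of 10 markers of dividing cells (median 1.77), 4 of 7 erythroid markers (median 1.42) and 2 of 6 astrocyte markers (median 0.43). None of these markers was called. Their part in the subunit values was not tested.

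The inducible catalytic subunits take the place of the constitutive ones in immune cells and after interferon, Psmb8 for Psmb5, Psmb9 for Psmb6 and Psmb10 for Psmb7. None was called by limma in any comparison, and at 13 months all 3 estimates were above 0, with Psmb9 alone at an unadjusted p under 0.05. Of all 23973 genes, 2780 were higher at that threshold. The mean of Psmb9 was 3773 ± 892 (SD) across the 8 HEM mice and 2870 ± 386 across the 4 WT mice, a change of 0.37 ± 0.15 (adjusted p = 0.134, limma). The mean of Psmb8 was 4929 ± 970 in HEM and 4218 ± 465 in WT, a change of 0.21 ± 0.15, and Psmb10 averaged 5706 ± 679 in HEM and 5384 ± 476 in WT, a change of 0.08 ± 0.10. At 3 months their changes were 0.16 ± 0.19 (Psmb8), 0.35 ± 0.19 (Psmb9) and 0.16 ± 0.13 (Psmb10).

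Genes that build or attach to the particle were read at 13 months, when 7.3% of all genes were called lower and 4.87% higher. Among 3 other subunits of the regulatory particle 1 was called, the small lid subunit Sem1, lower by -0.32 ± 0.10. Among 5 core assembly chaperones 1 was called, Pomp, which matures the core from its precursor, with 7410 ± 582 in HEM and 9478 ± 1269 in WT and a change of -0.35 ± 0.08. Of 5 alternative caps and inhibitors of the core none was called by limma, with a median of -0.13. Among them 1 was lower at an unadjusted p under 0.05, as were 3185 of all 23973 genes. Of 7 proteins that associate with the particle, the thioredoxin-like Txnl1 was lower (-0.25 ± 0.08) and Zfand5, which binds the particle and stimulates it, was higher. Zfand5 averaged 10364 ± 1641 in HEM and 7002 ± 585 in WT, with a change of 0.55 ± 0.12, and its groups did not overlap, since the lowest HEM library had 8204 and the highest WT library 7644.

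Nfe2l1, the activator of the subunit genes described with the promoters above, missed the threshold. At 13 months its mean was 19947 ± 1475 in HEM against 23944 ± 933 in WT, a change of -0.27 ± 0.09 (adjusted p = 0.0511, limma), with 22859 in the highest HEM library and 22745 in the lowest WT library. Its protein is controlled after translation, so a transcript level does not give its activity. The small Maf gene Mafk, a partner of such factors on the element, was higher, at 3847 ± 1030 in HEM and 2589 ± 259 in WT, a change of 0.54 ± 0.15 (adjusted p = 0.0268, limma). Mafk was the 1 call among the 8 genes of this list, against 4.87% of all genes called higher.

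Upstream of the particle, 3 of 10 substrate delivery genes were called lower at 13 months and none higher, with a median of -0.22. Of all genes 7.3% were called lower. Vcp, the ATPase that extracts ubiquitinated proteins from complexes and membranes, had 21527 to 25702 in HEM libraries and 28851 to 34115 in WT, with no overlap and a change of -0.41 ± 0.07 (adjusted p = 0.00192, limma). Rad23b, a shuttle that carries ubiquitinated proteins to the particle, changed by -0.38 ± 0.08, and Nsfl1c, a cofactor of Vcp, by -0.26 ± 0.06. Vcp was also the 1 gene of these lists called with age, higher in WT mice at 13 than at 3 months by 0.36 ± 0.08 (adjusted p = 0.0483, limma). Of 6 genes for ubiquitin and its activating enzymes none was called by limma at 13 months, and 1 had an unadjusted p under 0.05, Uba1 at -0.29 ± 0.10. Lower at that threshold were 3185 of all 23973 genes.

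**Figure D5:**
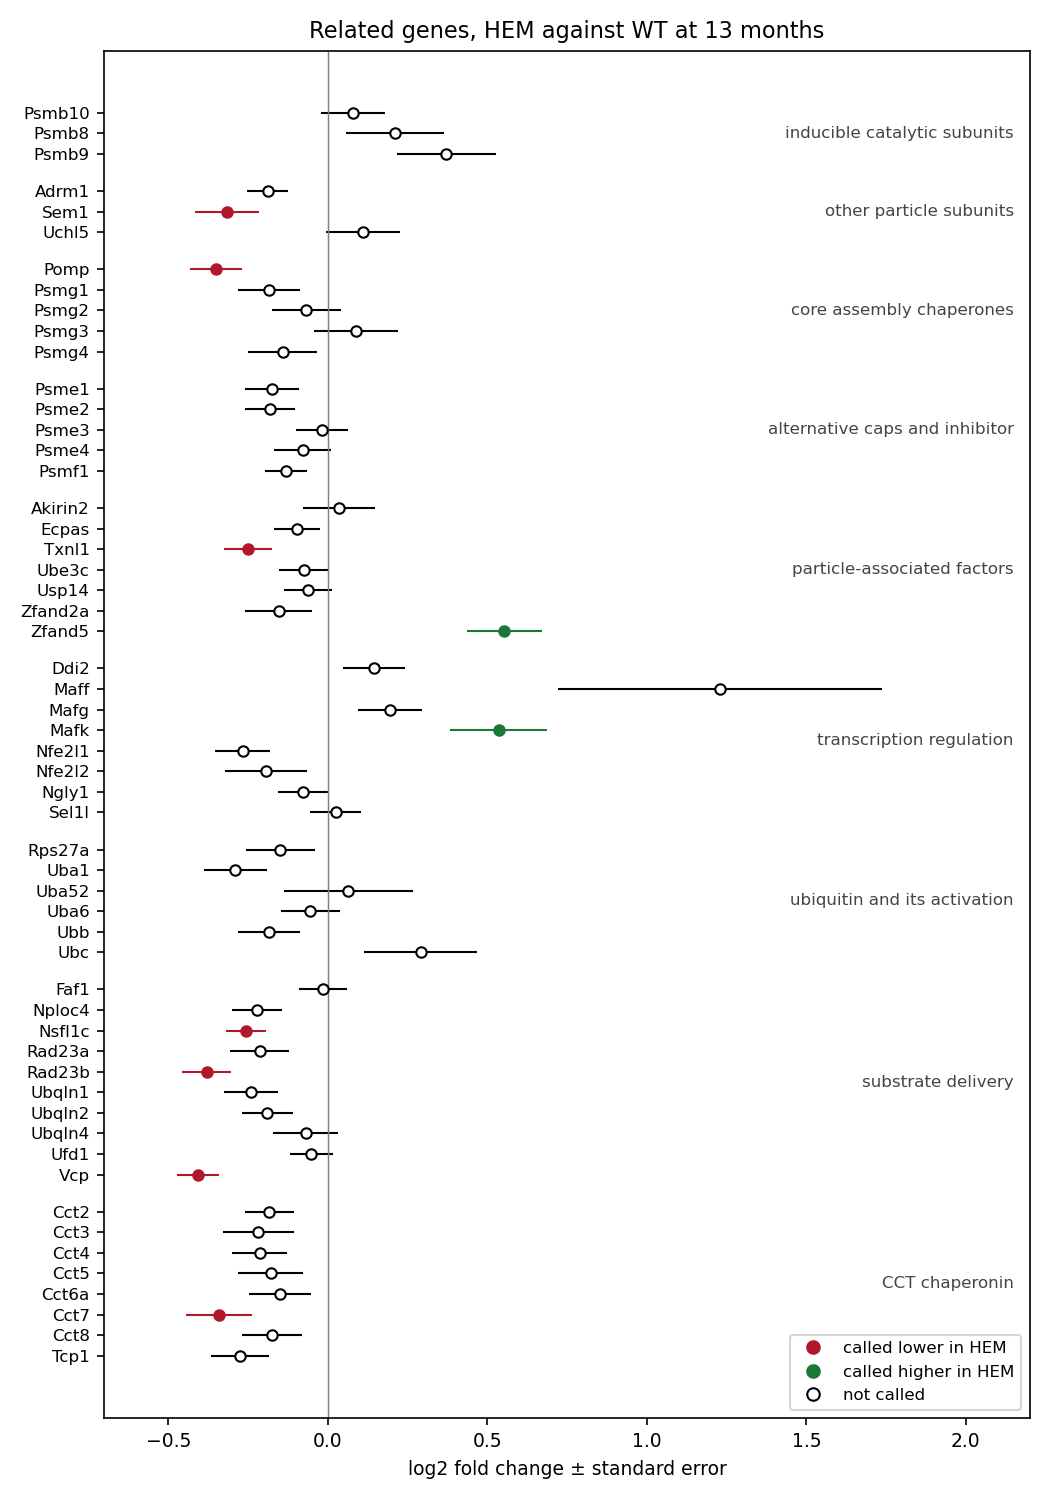
Log2 fold change with standard error, HEM over WT at 13 months, of genes that replace, assemble, regulate or feed the proteasome, and of the CCT chaperonin. Red marks genes called lower in HEM, green the genes called higher (Zfand5 and Mafk), and open points the genes not called.

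Other large complexes give a scale for the counts at 13 months. Of the 8 subunits of the CCT chaperonin, a folding chamber for actin and tubulin, 1 was called lower (Cct7, -0.34 ± 0.10), and all 8 estimates were below 0 with a median of -0.20. Of 36 genes named as respiratory complex I subunits by an Nduf symbol, 35 were called lower, with a median of -0.53. The proteasome, with 21 of 36 and a median of -0.26, lay between them, and 7.3% of all genes were called lower. The differences between the complexes were not tested.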

How the data were processed

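RNA of microglia-enriched brain homogenate from 19 mice was sequenced after AllPrep extraction and NEBNext Ultra II RNA library preparation, per the labels' protocols. Trimmomatic, HISAT2, featureCounts, DESeq2 and the build mm10 are named, per the submitters' processing notes; versions, annotation and strand setting are not given in the sources used here. In unit the deposited values are signal: the authors scaled gene counts by a single size factor for each library, as shown by 100% of values being whole multiples of one step per library (tolerance 0.01).

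Symbols, coordinates and transcript lengths came from GENCODE M21 (mm10), which gave a symbol to 99.5% of gene IDs. Genes reaching 10 in 3 or more libraries entered robust limma-trend on log2(value + 1), with limma 3.58.1 under R 4.3.3. The 4 group means shared 1 model, tests were two-sided, and Benjamini-Hochberg adjustment ran over all 23973 genes. Fold changes on this scale understate the change of low genes. The step was tested on simulated counts. Alternatives were edgeR 4.0.16 and DESeq2 1.42.0 on the recovered reads, pseudocounts of 0.5 and 10, other filters, TMM scaling, the 2 compared groups alone, marker covariates, the animal number as a block, and libraries left out.

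The subunit genes, related gene lists, markers and tests were chosen with earlier results of these data known. Members named with full values were the 4 called with the smallest p per comparison, or, in comparisons with no call, the 2 of smallest p, and Psmb5, Psmb6 and Psmb7; values of Psma2, Psmd10 and Psmd11 were added after they were seen. Animal numbers recur across groups without pairing the mice: deviations of same-numbered libraries from their group means correlated at -0.068 to 0.173. Replicate libraries were distinct, with log2 correlations of 0.942 to 0.981. Level per kilobase used the principal transcript. Promoter windows came from RefSeq (GRCm38.p6).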

Additional observations from a re-analysis of the deposited data

Results flagged for a closer look

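In 111 groups of 4 to 8 libraries the highest or lowest library was compared with the others of its group. Of these, 5, or 4.5%, stood far from the rest. The same libraries recur across genes, so this share cannot tell whether the 5 arose by chance. The alpha subunit Psma6 was low in HEM replicate 7 at 3 months, at 5752 normalized counts, against 6644 to 6808 in the other HEM libraries of that age. The trypsin-like subunit Psmb7 was high in HEM replicate 4 at 3 months, at 4430, against 3756 to 3845 in the others. The ATPase Psmc1 was high in WT replicate 7 at 13 months, at 10361, against 8715 to 8983 in the others. The lid subunit Psmd7 was high in HEM replicate 1 at 13 months, at 7615, against 6145 to 6804 in the others. The thymus subunit Psmb11 was high in HEM replicate 11 at 13 months, at 27.6, against 0 to 12.9 in the others.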

How the results depend on the processing

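At 13 months the 21 calls of lower transcript in HEM than in WT were called again by edgeR (21, against 7.27% of all genes called lower) and were all among the 24 called by DESeq2 (9.17% called lower). The count was 21 and 20 with pseudocounts of 0.5 and 10, 22 with the filter at 50, 20 with TMM scaling, 16 with no low filter, 16 with the 2 groups alone and 15 without the 3 libraries that stand apart (HEM replicates 1 and 11 at 13 months, HEM replicate 3 at 3 months). Over all genes, 1747 and 1750 of 23973 were called lower with those pseudocounts, and 1924 of 18431 with the filter at 50. With TMM scaling 1723 of 23973 were, and with no low filter 1354 of 41090. With the 2 groups alone it was 1362 of 23973, and without the 3 libraries 1475 of 23973. The count of members called was 0 with the neutrophil and erythroid covariate. It was also 0 with the choroid plexus covariate, which was chosen after the data were seen. With the replicate block it was also 0, with a median of -0.34 and 22 members at an unadjusted p under 0.05, against 11.3% of all genes; the animal numbers do not pair the mice. All genes together gave 0 calls in each of these 3 fits, and the cause was not tested. Leaving out 1 library gave 10 (without WT replicate 7) to 21 calls. No called value of a named member changed sign under any of these.

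At 3 months all alternatives gave 0 calls. With age in HEM, DESeq2 gave 1 and the others 0. With age in WT, DESeq2 gave 3, leaving out 1 library gave 0 to 2, and the others 0. For the difference of the genotype effects, DESeq2 gave 9, leaving out 1 library gave 0 to 3 (3 without WT replicate 6 and 1 without HEM replicate 7, both at 13 months, the second against 1.03% of all genes), and the others 0. The replicate block changed no other call.

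The 3-month groups of 4 and 3 mice limit the precision of every comparison that uses them. Counting error is small for the broadly expressed members, whose levels are given above, and large for Psmb11. The differences in marker levels at 13 months limit what the bulk values say of any 1 cell type.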

Other observations

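The 36 proteasome genes lie on 16 chromosomes, with 6 of them on chromosome 11 and 5 on chromosome 2.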
